A study of Brassica napus with 22 samples.

Results

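The endosperm of a young oilseed rape seed is polar. The chalazal endosperm lies at the end where the maternal vascular strand enters the seed, and the micropylar endosperm surrounds the embryo at the opposite end. These 2 regions were compared gene by gene in globular-stage seeds of Brassica napus cultivar Topas, unmodified plants grown under long days. The regions were isolated by laser microdissection and profiled by RNA sequencing. The comparison covered every gene listed at 1 FPKM or more in at least 1 of the regions (FPKM, fragments scaled to transcript length and sequencing depth), which was 44739 of 101040 genes. Brassica napus carries several copies of most Arabidopsis genes, so the copies that the authors' annotation assigns to an Arabidopsis locus were also summed, giving 16458 loci. The labels list 3 chalazal and 4 micropylar libraries among the 22 libraries of the study. The deposited table holds 1 combined column per region, so each value below is the authors' own combined value, with no SD and no test between replicates.

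The endosperm of crucifers begins as a syncytium of nuclei in a shared cytoplasm and later forms cell walls, starting at the micropylar end. In Arabidopsis the chalazal end stays syncytial longest and forms a cyst next to the maternal phloem terminus, where nutrients arrive. The micropylar end cellularises first, passes nutrients to the embryo and is later broken down to make room for it. Type I MADS-box factors such as AGL62 are known in Arabidopsis for holding the endosperm in its syncytial phase.

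A gene or locus is called higher or lower here when its chalazal minus micropylar difference in log2(FPKM + 1) was at least 1, a 2-fold change, and the larger value was at least 5 FPKM. By this rule 10303 genes were higher in the chalazal endosperm, which is 23% of those compared, and 11782 were lower, which is 26.3%. Of the loci, 3563 (21.6%) were higher and 5280 (32.1%) were lower, with a median difference of -0.26 over all loci.

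The columns differed in makeup in ways that move these counts. FPKM summed to 2283005 in chalazal and 1551716 in micropylar column. Genes of ribosomal RNA and the organelles held 4.16% of the chalazal and 36.9% of the micropylar sum, and nuclear genes under 300 bases held 21.0% and 4.48%. With the columns set to a common median, the median difference of loci was 0.29, with quantile scaling -0.26, and with a common sum after ribosomal RNA and organelle genes were left out -1.31. The share of called loci that were higher in the chalazal endosperm was 40.3% as deposited, against 53.9%, 41.5% and 18.9% under the 3 other scalings. A stricter call, used for every locus named below as higher or lower unless stated, required the rule to hold as deposited and under all 3 other scalings. It kept 1894 loci (11.5%) as higher and 4007 (24.3%) as lower in the chalazal endosperm, and for genes 5811 (13%) and 8544 (19.1%).

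An exact 0 in these columns can be a failed estimate. Of 2469 genes at 20 FPKM or more in the 5 other dissected compartments, 1 was listed at 0 in chalazal and 74 in micropylar column. Values against a pole listed at 0 are therefore given as levels without a fold, and the log2 differences of such loci depend on the added 1 FPKM. In pooled tissue, fewer cells of a type and less RNA per cell cannot be told apart.

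**Figure D1:**
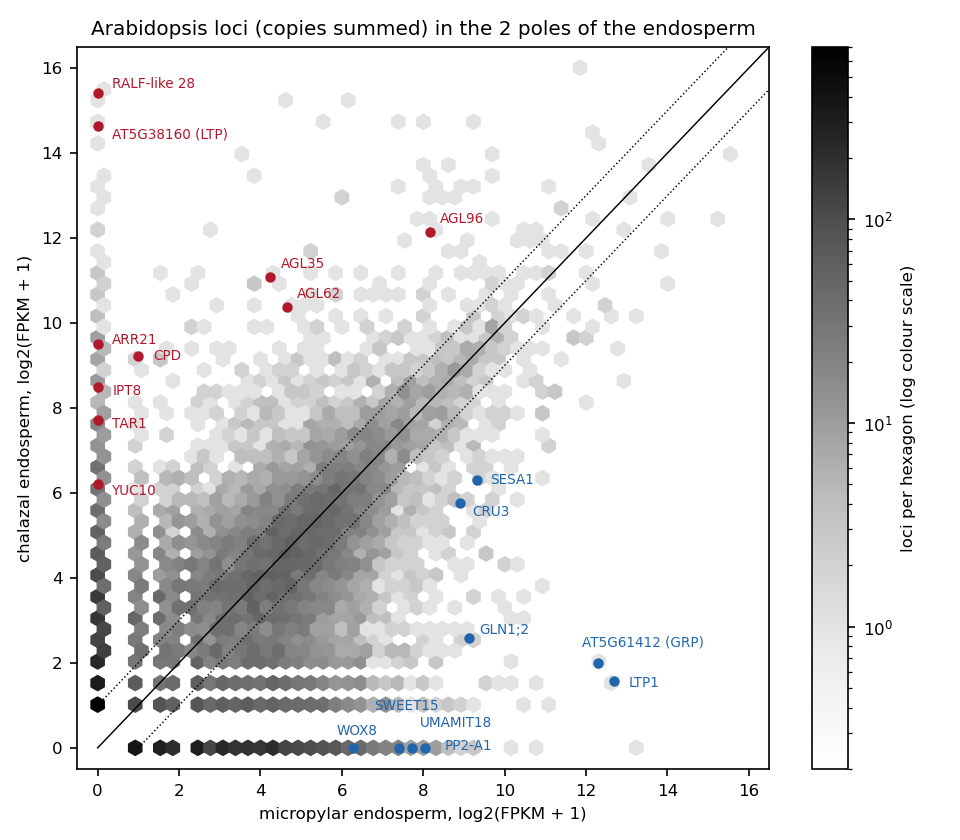
Level of each Arabidopsis locus, copies summed, in the chalazal endosperm (y axis) and the micropylar endosperm (x axis), both as log2(FPKM + 1), with darker hexagons holding more loci; the solid line marks equal levels and the dotted lines a 2-fold difference. Red points are named loci higher in the chalazal pole, up to RALF-like 28 at 44018 FPKM against 0, and blue points are named loci lower there, down to lipid transfer protein 1 at 2 FPKM against 6639.

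The labels were checked against known markers of each pole. IPT8, a cytokinin synthesis gene known from the chalazal endosperm of Arabidopsis, was at 359 FPKM in chalazal and 0 in micropylar endosperm. ZHOUPI (ZOU), a factor that drives endosperm breakdown around the embryo, was at 0 FPKM in chalazal and 58 in micropylar endosperm, and its target ALE1, a subtilase, was at 2 and 23 FPKM. The poles were thus told apart in the direction their labels give. FIS2, a Polycomb gene also placed on the chalazal marker list, was at 22 and 20 FPKM and did not separate them.

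Transcripts shared with neighbouring tissues were gauged with genes at 100 FPKM or more in 1 of the 5 other compartments. Each was also at least 10-fold above the remaining ones of those 5. The rule set no limit on the poles, so it cannot tell carried-over material from a pole's own expression. The 72 embryo proper genes of this kind had a median of 0% of their embryo level in the chalazal column and 2.17% in the micropylar column. The 71 outer seed coat genes stood at medians of 0% and 1.89%, and 0 of them reached a 10% share in the chalazal column against 26 in the micropylar column. The 187 genes of the chalazal proliferating tissue, the maternal tissue next to the chalazal cyst, stood at 0.468% and 0%. The largest share was that of the peripheral endosperm, whose 493 genes stood at 39% in the chalazal and 5.48% in the micropylar column. The fixed embryo markers, 9 loci such as LEC1, summed to 2 FPKM in chalazal and 123 in micropylar column against 823 in the embryo proper, and LEC1, LEC2 and ABI3 were at 1, 0 and 0 FPKM and at 35, 62 and 19 FPKM. Transcripts of peripheral endosperm genes were thus found in the chalazal column and those of embryo and outer seed coat genes in the micropylar column. Their source and their part in the results were not tested. Most counts below therefore also give the loci more abundant in their own pole than in the embryo proper and the 3 maternal compartments. Of the strict calls this held for 1206 of the 1894 loci higher in the chalazal pole (63.7%). It held for 2187 of the 4007 lower ones (54.6%). The peripheral endosperm was not part of that comparison, so these counts do not address its transcripts in the chalazal column.

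Several of the most abundant transcripts of the chalazal endosperm encode small secreted proteins. The gene with the highest nuclear value, BnaC08g08250D (C08, 12290661 to 12290900 in the table's coordinates, whose build is not given in the sources used here), matches AT2G36724, has no description, and spans 240 bases. It stood at 68022 FPKM in chalazal and 218 in micropylar endosperm, and BnaC09g04880D, matching the same locus, at 53094 and 109. RALF-like 28 was at 44018 FPKM in chalazal and 0 in micropylar endosperm, and RALF-like 21 at 40564 and 65. RALF peptides are secreted signals that change the pH outside the cell, and these 2 reached at most 424 FPKM in any other compartment.

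The 8 largest differences among loci with a description at 50 FPKM or more included further small secreted proteins. LCR84, a small cysteine-rich protein (AT2G14365), was at 36538 FPKM in chalazal and 0 in micropylar endosperm. A protein of the lipid-transfer and 2S albumin superfamily, AT5G38160, was at 25527 and 0 FPKM, and AT4G32105, annotated as a glycosyltransferase family member, at 21102 and 0. LCR23 (AT4G29273) was at 10904 and 0, and the gibberellin-regulated protein AT2G39540 at 10656 and 0. These loci were listed at no more than 393 FPKM in the peripheral endosperm, the region between the poles, and their chalazal levels exceeded every other compartment.

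Defensin-like and other small cysteine-rich (LCR) proteins, secreted peptides with disulfide bridges, comprised 68 loci compared. Of these 28 were strictly higher and 12 lower in the chalazal endosperm, which is 41.2% and 17.6% against 11.5% and 24.3% of all loci, and 27 of the 28 were above the embryo and maternal compartments. The S1 self-incompatibility family, small secreted proteins related to the pollen-rejection factor of poppy, had 13 of 24 (54.2%) higher and 5 (20.8%) lower. AT3G17080 of this family was at 1506 FPKM in chalazal and 0 in micropylar endosperm, whereas AT1G04645 was at 48 and 744. Not all secreted peptides leaned this way. RALF peptides had 3 loci (18.75%) higher and 9 (56.25%) lower of 16, and 3 of the 9 were above the embryo and maternal compartments. Among the others was RALF23, at 0 and 133 FPKM, and it was at 390 FPKM in the outer seed coat.

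Lipid transfer proteins, which carry lipids in the cell wall and cuticle, divided by member. Of 60 loci 7 (11.7%) were strictly higher and 32 (53.3%) lower in the chalazal endosperm, against 11.5% and 24.3% of all loci. Of the 32, 18 were above the embryo and maternal compartments, against 54.6% of all lower loci. LTP1, known in Arabidopsis from epidermal cell walls, had the most negative difference of all described loci, with 2 FPKM in chalazal and 6639 in micropylar endosperm, and 1046 in the outer seed coat. LTP6 was at 1 and 2169 FPKM but reached 8318 in the outer seed coat. AT1G48750 was at 2 and 1691 FPKM against 154 in the embryo proper and 5 in the outer seed coat. The micropylar values of LTP1 and AT1G48750 were therefore above every other compartment, while that of LTP6 was not. Also highest in the micropylar endosperm were a glycine-rich protein, AT5G61412, at 3 and 5061 FPKM with 253 in the embryo proper, and a pectate lyase, AT1G67750, at 0 and 629 with at most 2 in the other compartments.

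**Figure D2:**
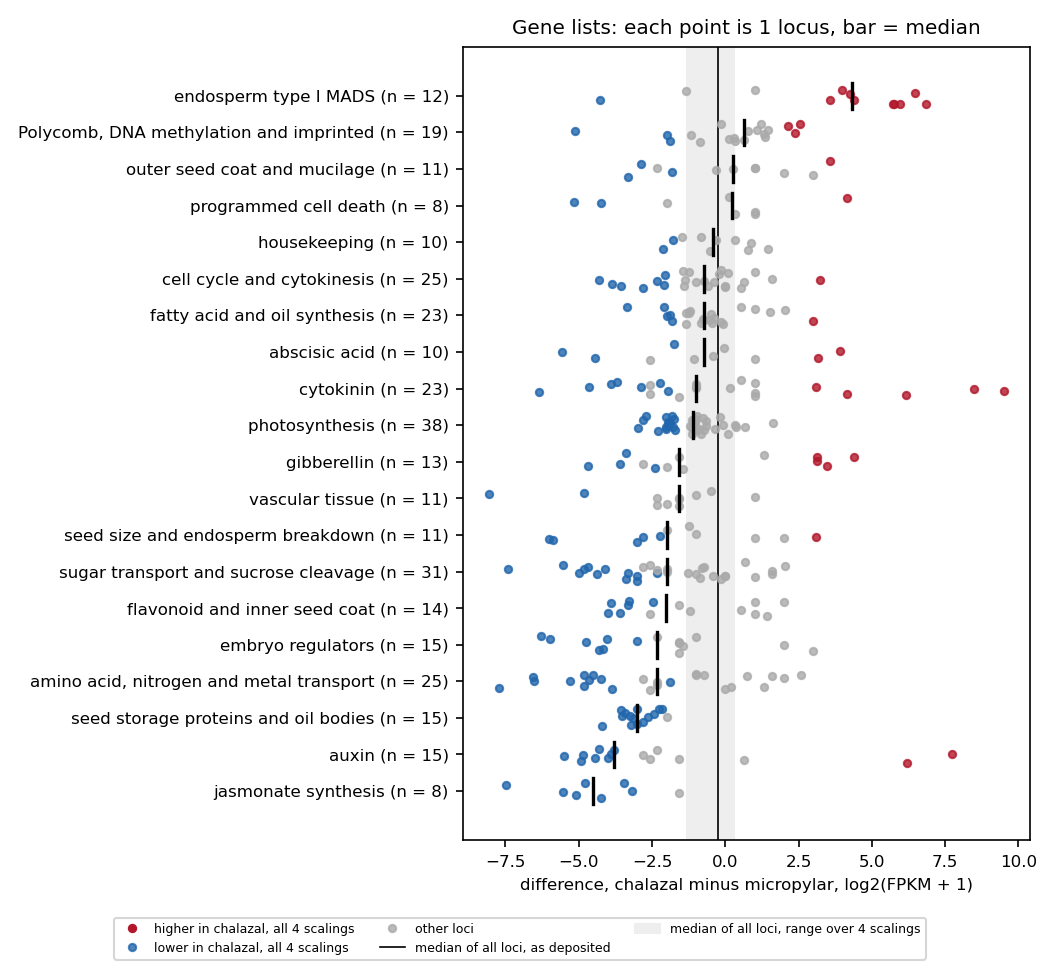
Chalazal minus micropylar difference in log2(FPKM + 1) for each locus of 20 gene lists, with the median of each list as a black bar, red and blue points for loci called higher and lower under all 4 scalings, and the grey band for the median of all loci across scalings (-1.31 to 0.29). The type I MADS list has a median of 4.32, and the jasmonate and storage protein lists have medians of -4.52 and -3.02.

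Type I MADS-box factors were the list most strongly tilted to the chalazal pole. Of 12 loci compared, 9 (75%) were higher and 1 (8.33%) lower under all scalings, against 11.5% and 24.3% of all loci. The list median was 4.32, and 8 of the 9 were above the embryo and maternal compartments. Their summed level was 9126 FPKM in chalazal and 437 in micropylar endosperm. AGL96 was at 4560 and 285 FPKM, AGL35 at 2178 and 18 with a difference of 6.84, and AGL62, the repressor of cellularisation, at 1339 and 24 with a difference of 5.74. PHERES1 (PHE1), an imprinted factor expressed from the paternal allele in Arabidopsis, was at 265 and 2 FPKM. The exceptions were AGL45, at 2 FPKM in chalazal and 57 in micropylar endosperm, and PHE2, a close relative of PHE1 whose reads may be shared with it, at 8 and 22. The list was also abundant in the peripheral endosperm, where AGL62 was at 1096 FPKM and PHE2 at 192. For 4 of the 9 higher loci the peripheral level exceeded the chalazal one. AGL91 was at 631 FPKM in the chalazal, 29 in the micropylar and 758 in the peripheral endosperm, AGL40 at 52, 0 and 93, AGL36 at 18, 0 and 37, and AGL80 at 11, 0 and 68.

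Other transcription factors with large chalazal values were not on any list. AGL33 was at 712 FPKM in chalazal and 0 in micropylar endosperm, and AGL67 at 318 and 0, with at most 4 FPKM in other compartments. The B3-domain factor AT4G01500 was at 919 and 0 FPKM, the C2H2 zinc finger proteins AT2G18490 and AT5G22990 at 1323 and 0 and at 1185 and 0, and the bZIP factor AT2G40620 at 728 and 2. HDG9, a homeodomain factor of the class that acts in epidermal cells, was at 135 and 0. Taken by family, MADS-box factors had 16 loci (34.0%) higher and 13 (27.7%) lower of 47, and C2H2 zinc fingers 13 (28.9%) and 12 (26.7%) of 45, against 11.5% and 24.3% of all loci. In each family 4 of the lower loci were above the embryo and maternal compartments.

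The micropylar pole had its own factors. MYB100 was at 3 FPKM in chalazal and 305 in micropylar endosperm with at most 4 elsewhere, and the C2H2 protein AT1G14580 was at 5 and 493 with at most 8 elsewhere. Both had their highest level of the 7 compartments there. The type II MADS factors AT1G24260 (SEP3) and AT2G42830 (SHP2), which act in flower and fruit identity, were at 0 and 216 and at 1 and 97 FPKM, but stood at 298 and 886 FPKM in the outer seed coat. Basic helix-loop-helix factors had 4 loci higher and 27 (41.5%) lower of 65, homeobox factors 17 and 49 (40.8%) of 120, NAC factors 2 and 14 (32.6%) of 43, and WRKY factors 5 and 14 (42.4%) of 33, against 24.3% lower of all loci. Of these lower loci 13, 28, 10 and 6 were above the embryo and maternal compartments.

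F-box proteins, which select targets for ubiquitin-dependent degradation, had more loci higher in the chalazal endosperm than any other of the 32 families. Of 233 loci, 76 (32.6%) were higher and 32 (13.7%) lower under all scalings, against 11.5% and 24.3% of all loci. Of the 76, 66 were above the embryo and maternal compartments. AT1G05080 was at 1690 FPKM in chalazal and 3 in micropylar endosperm, AT1G53325 at 709 and 0, and AT1G54640 at 597 and 0. Receptor-like kinases, which perceive secreted signals at the cell surface, went the other way, with 6 loci (3.85%) higher and 59 (37.8%) lower of 156, and 29 of the 59 above the embryo and maternal compartments. The kinases IMK2 (AT3G51740) and AT5G05160 were at 0 and 108 and at 0 and 62 FPKM, and the first was also at 133 FPKM in the embryo proper.

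**Figure D3:**
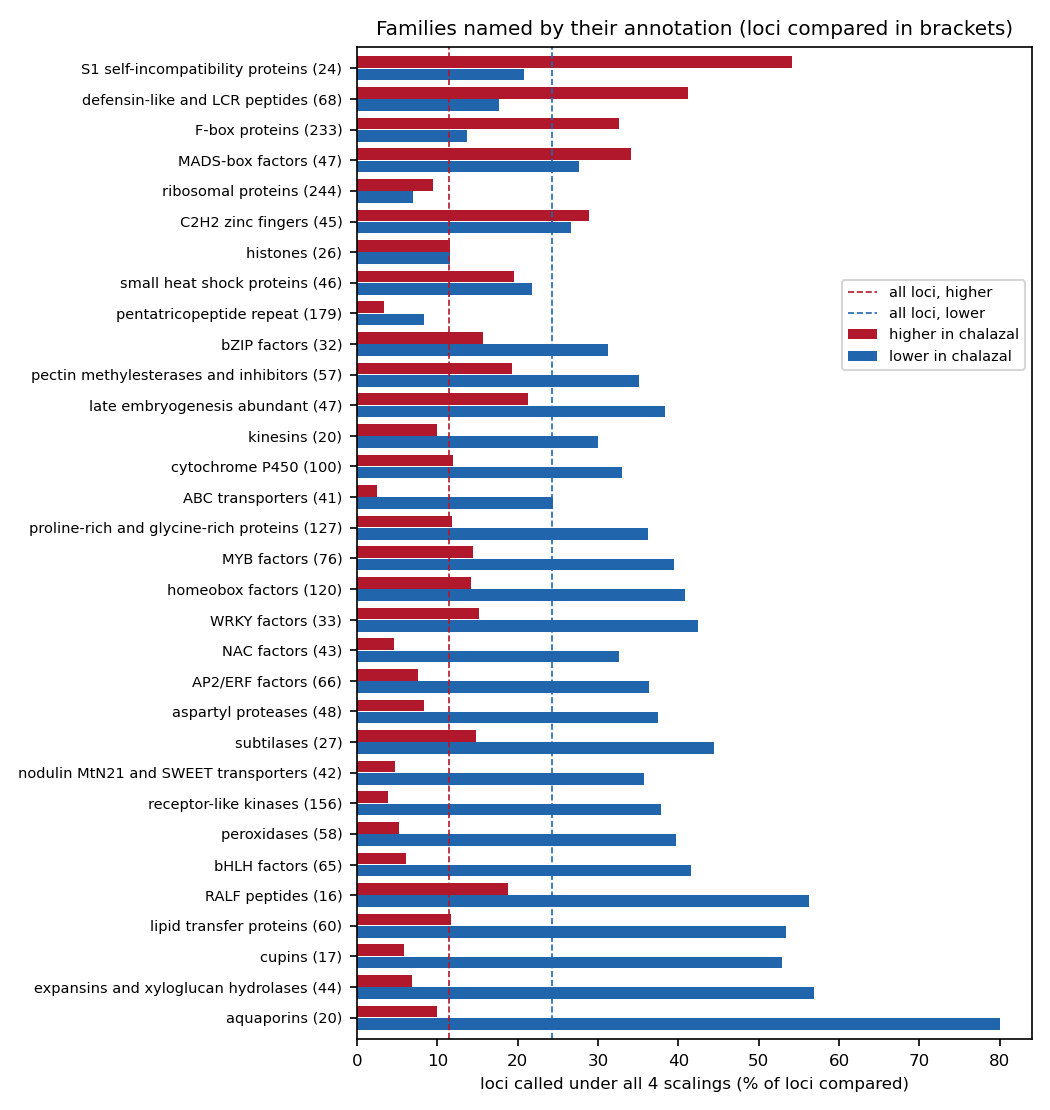
Share of the loci compared in 32 families, named by words in the annotation, that were higher (red, upper bar) or lower (blue, lower bar) in the chalazal endosperm under all 4 scalings; dashed lines give the shares of all loci, 11.5% and 24.3%. S1 proteins, defensin-like and LCR peptides and F-box proteins stand at the top and aquaporins, with 80% lower, at the bottom.

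Cytokinin genes differed between the poles by member. Of the synthesis genes compared, 3 were higher in the chalazal endosperm. IPT8, which makes the precursor, was at 359 FPKM there and at 0 in the micropylar endosperm, as given above. CYP735A1, which hydroxylates the side chain to give trans-zeatin forms, was at 71 and 0, and LOG2, which releases the active base, at 17 and 0. Other synthesis genes were not called, with IPT2 at 12 and 8 FPKM, LOG8 at 19 and 17, IPT7 at 1 and 0 and IPT9 at 0 and 1. The response regulator ARR21 was at 730 and 0 FPKM, and ARR10 at 50 and 5, both of the type that activates transcription. IPT8, CYP735A1, LOG2 and ARR21 were at no more than 9 FPKM in any other compartment.

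The micropylar endosperm held other cytokinin genes. CKX2, an oxidase that degrades cytokinin and a known regulator of seed size, was at 15 FPKM in chalazal and 117 in micropylar endosperm, and CKX7 at 0 and 14. The negative-feedback response regulators ARR15, ARR4, ARR6 and ARR7 were at 0, 0, 6 and 8 FPKM in chalazal and 81, 12, 32 and 34 in micropylar endosperm. ARR15 was also at 82 FPKM in the outer seed coat, and ARR4 was at 28 in the embryo proper, above its micropylar level. The activating regulator ARR12 was at 0 and 24. Of the 23 loci compared, 5 (21.7%) were higher and 7 (30.4%) lower under all scalings, against 11.5% and 24.3% of all loci. Above the embryo and maternal compartments were 4 of the 5 and 4 of the 7, against 63.7% and 54.6% of all strict calls. The receptors AHK2, AHK3 and AHK4 were low in both poles, at 0, 5 and 0 FPKM in chalazal and 5, 11 and 2 in micropylar endosperm.

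Auxin genes higher in the chalazal endosperm were both of synthesis, and synthesis genes were found on both sides. TAR1, a tryptophan aminotransferase, was at 210 FPKM in chalazal and 0 in micropylar endosperm, and YUC10, a flavin monooxygenase that completes auxin synthesis, at 73 and 0. TAR1 was equally high in the peripheral endosperm, at 221 FPKM, whereas YUC10 was at 9 there. TAA1 was at 33 and 21 FPKM and was not called. TAR2, another aminotransferase, was at 0 and 28, and the monooxygenase YUC6 at 0 and 6, lower as deposited. Of the 15 loci compared 2 (13.3%) were higher and 8 (53.3%) lower, against 11.5% and 24.3% of all loci. Most of the lower ones were carriers.

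The carriers named here were listed at 0 or 1 FPKM in the chalazal endosperm. The importer AUX1 was at 0 FPKM there and 44 in the micropylar endosperm, LAX2 at 0 and 21, and the exporters PIN3 and PIN4 at 0 and at 15 and 19. ABCB1 was at 1 FPKM in chalazal and 27 in micropylar endosperm, and ABCB19 at 0 and 29. Most of these were higher still in the embryo proper, with PIN4 at 136 FPKM and AUX1 at 54, and 1 of the 8 lower loci, TAR2, was above the embryo and maternal compartments.

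Gibberellin genes of the same enzyme families differed in direction between the poles. GA20ox4, an oxidase of the late pathway, was at 333 FPKM in chalazal and 37 in micropylar endosperm, and GA3ox4, which makes the active hormone, at 25 and 2. GA20ox3 was at 2 FPKM in chalazal and 15 in micropylar endosperm, below GA20ox4 in both, and GA3ox1 at 0 and 11. Among enzymes that inactivate gibberellin, GA2ox8 and GA2ox3 were at 20 and 10 FPKM in chalazal and 0 in micropylar endosperm, and GA2ox6 at 0 and 25. In the peripheral endosperm GA2ox8 was at 11 FPKM and GA2ox3 at 15, the second above its chalazal level. Of 13 loci compared, 4 (30.8%) were higher and 4 (30.8%) lower, against 11.5% and 24.3% of all loci. All of them were above the embryo and maternal compartments.

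A pair of brassinosteroid genes appeared through the cytochrome P450 family rule. AT5G05690, known as CPD, was at 599 FPKM in chalazal and 1 in micropylar endosperm, and CYP724A1 (AT5G14400) at 592 and 2. CPD was at 119 FPKM in the outer seed coat, and CYP724A1 at no more than 6 in any other compartment. At the micropylar pole the leading P450 genes were CYP78A5 (AT1G13710, KLU), a growth promoter of seeds and organs in Arabidopsis, at 0 and 107 FPKM, and its relative CYP78A6 (AT2G46660), at 0 and 75. KLU was higher in the embryo proper, at 259 FPKM, and CYP78A6 was at 3 FPKM or less in the compartments other than the micropylar endosperm.

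Abscisic acid genes had 2 loci (20%) higher and 3 (30%) lower of 10, against 11.5% and 24.3% of all loci. NCED2, of the rate-limiting step, and AAO3, of the last step of synthesis, were at 8 and 29 FPKM in chalazal and at 0 and 1 in micropylar endosperm. In the peripheral endosperm they were at 25 and 22 FPKM. The hydroxylases CYP707A1 and CYP707A3, which break the hormone down, were at 0 and 46 and at 0 and 21. Synthesis genes were also among the lower ones, with ABA3, a cofactor sulfurase, at 2 and 9 and ABA1, the zeaxanthin epoxidase, at 30 and 64, the second lower as deposited only. Jasmonate synthesis leaned to the micropylar endosperm, with 0 loci higher and 7 (87.5%) lower of 8 and a median of -4.52. AOC4 was at 0 FPKM in chalazal and 178 in micropylar endosperm, AOS at 0 and 45, OPR3 at 5 and 65, and JAR1, which makes the active conjugate, at 2 and 82. Of the 7 lower loci, 4 were above the embryo and maternal compartments, AOS, OPR3, JAR1 and LOX6, while AOC4 and LOX2 were at 503 and 510 FPKM in the outer seed coat.

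Regulators of endosperm growth and breakdown were more often lower than higher in the chalazal endosperm. Of 11 loci, 1 (9.09%) was higher and 5 (45.5%) lower under all scalings, against 11.5% and 24.3% of all loci. As deposited 4 were not called, and 4 of the 5 lower ones were above the embryo and maternal compartments. TFL1, a mobile factor made in the chalazal endosperm of Arabidopsis that acts on the timing of cellularisation, was the higher one. Its copies summed to 93 FPKM in the chalazal, 10 in the micropylar and 72 in the peripheral endosperm. Different copies made up the chalazal and the peripheral sums, as given below. MINI3, a WRKY factor that promotes endosperm growth, was at 101 FPKM in the chalazal, 705 in the micropylar and 617 in the peripheral endosperm. ICE1, the partner of ZOU, was at 10 and 50 FPKM. AP2, which limits seed size, was at 0 and 63, but the 3 maternal compartments held 65 to 152 FPKM and the embryo proper 86.

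Chromatin genes gave a mixed picture. Of 19 loci of the Polycomb, DNA methylation and imprinting list, 8 were higher and 4 lower as deposited. Under all scalings 3 (15.8%) were higher and 3 (15.8%) lower, against 11.5% and 24.3% of all loci. MSI1, a subunit of the Polycomb complex, was at 97 FPKM in chalazal and 21 in micropylar endosperm, and PEG2 at 30 and 5. SUVH7, a paternally expressed histone methyltransferase gene in Arabidopsis, was at 76 and 12. In the peripheral endosperm MSI1 was at 161 FPKM and PEG2 at 467, above their chalazal levels, and SUVH7 at 39. The complex members FIE and MEA were at 59 and 21 and at 18 and 8 FPKM, differences of 1.45 and 1.08 that did not hold under every scaling. The DNA demethylases stood apart: ROS1 was at 0 FPKM in chalazal and 34 in micropylar endosperm, a level close to the 33 of the embryo proper, whereas DME was at 59 and 47. DRM2 and DDM1, needed for DNA methylation, were at 3 and 15 and at 2 and 10. Both were higher in the embryo proper, at 27 and 197 FPKM. Above the embryo and maternal compartments were all 3 strictly higher loci and 1 of the 3 lower ones, ROS1.

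Genes of sugar transport and sucrose cleavage, counted as 1 list, leaned to the micropylar column. Of 31 loci, 0 were higher at the chalazal pole and 12 (38.7%) lower under all scalings, against 11.5% and 24.3% of all loci. Of the 12, 10 were above the embryo and maternal compartments. SWEET15, a sucrose exporter that feeds the embryo in Arabidopsis, was at 0 FPKM in chalazal and 168 in micropylar endosperm, with at most 5 elsewhere outside the whole seed. SWEET11 and SWEET12, which act with it, were at 1 and 20 and at 0 and 45, and SWEET4 at 0 and 31. Sucrose synthase SUS1 was at 11 and 204 FPKM, below the 302 of the chalazal proliferating tissue.

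Some sugar transporters were alike in level. The importer SUC1 was at 98 FPKM in chalazal and 108 in micropylar endosperm, and SWEET8 at 98 and 131. The vacuolar invertase gene VI1, at 32 and 7 FPKM, was the only locus of the list higher in the chalazal pole as deposited, and this did not hold under all scalings.

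The list of amino acid, nitrogen and metal transport, which also holds glutamine synthetase, followed the same direction. Of 25 loci, 0 were strictly higher and 11 (44%) lower, against 11.5% and 24.3% of all loci. All 11 had a higher level in the micropylar endosperm than in the embryo proper and the maternal compartments. UMAMIT18 and UMAMIT25, amino acid exporters, were at 0 and 209 and at 0 and 93 FPKM. The glutamine synthetase GLN1;2 was at 5 and 554 FPKM, and the importer AAP1 at 1 and 78. UMAMIT25 was at no more than 1 FPKM in every other compartment, whereas UMAMIT18 was at 144 in the inner seed coat. AAP8, an importer for which a role in loading young Arabidopsis seeds is known, was at 88 and 35 FPKM and reached 201 in the chalazal proliferating tissue.

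Water channels had the highest share of lower loci among the 32 families. Of 20 aquaporins, 2 were higher at the chalazal pole and 16 lower under all scalings, which is 80% lower against 24.3% of all loci, and 10 of the 16 were above the embryo and maternal compartments. PIP1B was at 10 FPKM in chalazal and 1007 in micropylar endosperm, PIP1;4 at 0 and 244 and TIP2 (AT3G26520) at 0 and 189. PIP1B was more abundant in all 3 maternal compartments, at 1198 to 2606 FPKM, while TIP2 was highest in the micropylar endosperm. The higher ones were SIP2;1 at 105 and 20 FPKM and AT5G18290 at 8 and 1.

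Cell wall loosening enzymes were likewise mostly micropylar. Expansins and xyloglucan hydrolases had 3 loci (6.82%) higher and 25 (56.8%) lower of 44, against 11.5% and 24.3% of all loci. Of the 25, 18 were above the embryo and maternal compartments. Expansin A5 was at 1 FPKM in chalazal and 619 in micropylar endosperm, and expansin A6 at 0 and 144. The chalazal pole had a member of its own in XTH2, at 2596 and 0 FPKM. Peroxidases had 3 (5.17%) higher and 23 (39.7%) lower of 58, and 15 of the 23 were above the embryo and maternal compartments.

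Seed storage protein and oil body genes were lower in the chalazal endosperm in 14 of 15 cases (93.3%) under all scalings, against 24.3% of all loci. Their summed level was 360 FPKM in chalazal and 3354 in micropylar endosperm, and all 14 were higher in the micropylar endosperm than in the embryo proper and the maternal compartments. The 2S albumins SESA1 and SESA4 were at 78 and 642 and at 54 and 591 FPKM, the cruciferin CRU3 at 53 and 475, and the oleosin OLEO1 at 33 and 400. The median difference of the list was -3.02, and the most negative was -4.21 for EM6, at 1 and 36 FPKM. EM1, at 0 and 3 FPKM, was under the floor. These genes are best known from the maturing embryo. In the globular embryo proper CRU3 was at 2 FPKM, SESA1 at 12, SESA4 at 34 and OLEO1 at 38, the last above its chalazal level.

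Fatty acid and oil synthesis did not show the same tilt. Of 23 loci, 1 (4.35%) was higher and 5 (21.7%) lower under all scalings, against 11.5% and 24.3% of all loci. As deposited 10 were not called. DGAT1, the enzyme of the last step of triacylglycerol synthesis, was at 71 FPKM in chalazal and 8 in micropylar endosperm, against 54 in the embryo proper. PDAT1, which reaches the same product by another route, was at 11 and 41. WRI1, the factor that activates fatty acid synthesis, was at 21 and 28 and the desaturase FAD2 at 153 and 161.

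Photosynthesis genes were abundant at both poles, with summed levels of 9760 FPKM in chalazal and 23506 in micropylar endosperm. Of 38 loci, 0 were higher and 14 (36.8%) lower under all scalings, against 11.5% and 24.3% of all loci. The median difference was -1.09. The light-harvesting genes LHCB1.3 and LHCB3 were at 343 and 2397 and at 87 and 698 FPKM, while RBCS1A was at 448 and 502 and photosystem genes such as PSAK at 173 and 184. GAPA, a chloroplast enzyme of carbon fixation, was at 616 and 198 FPKM, the only locus of the list that was higher as deposited.

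Cell cycle genes had 1 locus (4%) higher and 7 (28%) lower of 25 under all scalings, a lower share near the 24.3% of all loci. CDT1A, which licenses replication origins, was at 74 FPKM in chalazal and 7 in micropylar endosperm. The B-type cyclin CYCB1;1 was at 0 and 19, CYCD3;1 at 1 and 28, and the replication helicase subunits MCM2 and MCM3 at 2 and 20 and at 4 and 58. Of the 7 lower loci, 1 was above the embryo and maternal compartments, and CYCB1;1 and MCM3 were at 74 and 146 FPKM in the embryo proper. The replication clamp PCNA1 was at 47 and 44 FPKM, and the mitotic kinases AUR1 and CDKB2;1 at 24 and 32 and at 15 and 10.

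Lists of genes known from other tissues were compared as well. Of 15 embryo regulators, 0 were strictly higher and 7 (46.7%) lower, against 11.5% and 24.3% of all loci. Of the 7, 2 exceeded the embryo and maternal compartments. These were LEC2, at 0 FPKM in the chalazal, 62 in the micropylar endosperm and 39 in the embryo proper, and WOX8, at 0, 77 and 0. WOX8 is known in Arabidopsis from the suspensor, the stalk that joins the embryo to the micropylar end, and the other 4 compartments listed it at 0 too. The remainder, such as LEC1 at 1 and 35 FPKM, were higher in the embryo proper, where LEC1 was at 274.

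The vascular list had 0 loci strictly higher and 2 lower of 11, and its 18.2% lower was below the 24.3% of all loci. The phloem protein PP2-A1 was at 0 FPKM in chalazal and 265 in micropylar endosperm, the phloem identity factor APL at 0 and 27, and the sucrose loader SUC2 at 0 and 25. PP2-A1 and APL were at no more than 1 FPKM in every other compartment, and the 5 fixed phloem markers summed to 0 and 323, most of it PP2-A1; SEOR1 and SEOa, at 0 and 2 and at 0 and 4, were not called. Of 14 flavonoid and inner seed coat genes 0 were strictly higher and 6 (42.9%) lower, among them BAN at 0 and 14 FPKM and TT7 at 0 and 15, and 1 of the 6 was above the embryo and maternal compartments. BAN was at 56 in the chalazal proliferating tissue. Chalcone synthase TT4 was at 116 and 43 FPKM, a difference of 1.41 that did not hold under every scaling. The outer seed coat and mucilage list had 1 locus (9.09%) higher and 3 (27.3%) lower of 11, against 11.5% and 24.3% of all loci. Its median was 0.26. MUM2, a galactosidase, was at 23 and 1 FPKM, and at 52 in the peripheral endosperm. The subtilase SBT1.7 was at 2 and 21. The programmed cell death list had 1 (12.5%) higher and 2 (25%) lower of 8, near the shares of all loci. Neither of the lower ones was above the embryo and maternal compartments. The aspartic protease PASPA3 was at 17 and 0 FPKM and the vacuolar processing enzyme bVPE at 0 and 35. Housekeeping genes, the last list, had 0 higher and 2 (20%) lower of 10, with a median of -0.42.

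**Figure D4:**
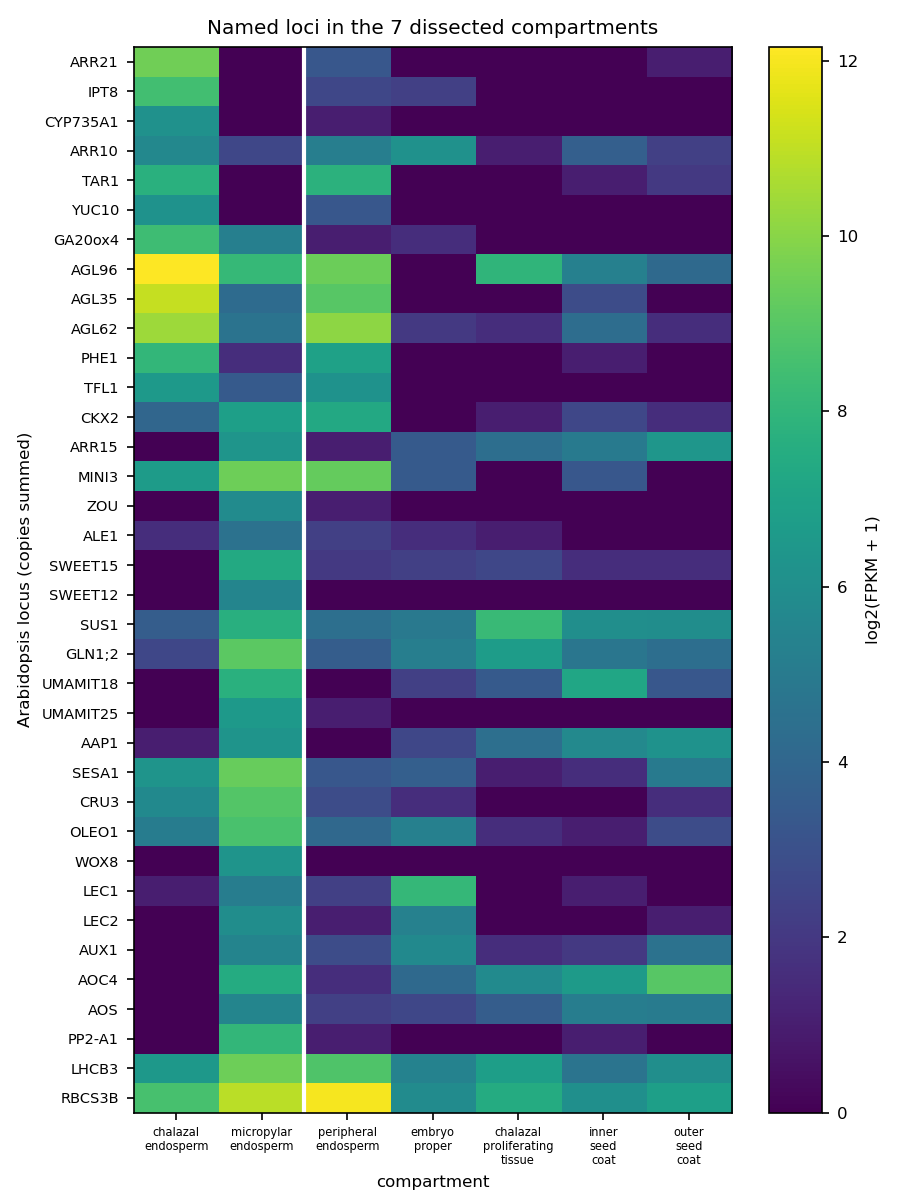
Levels of 36 named loci (rows, copies summed) as log2(FPKM + 1) in the 7 dissected compartments (columns), with the chalazal and micropylar endosperm left of the white line. ARR21, IPT8, CYP735A1 and YUC10 are bright in the chalazal column alone, and SWEET12, UMAMIT25, WOX8 and PP2-A1 in the micropylar column alone. AGL62, TAR1 and TFL1 are bright in the chalazal and peripheral columns, TFL1 through different copies.

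Set against all compartments, the loci strictly higher in the chalazal endosperm and outside ribosomal RNA and organelle genes numbered 1892, of which 1023 (54.1%) had their highest level of all 7 compartments there. Among the 5 other compartments the highest was the peripheral endosperm for 44.1% of the 1892 loci. The lower loci numbered 3950, of which 2046 (51.8%) had their highest level in the micropylar endosperm. For these the highest of the 5 others was the embryo proper in 26.6%, the outer seed coat in 21.7% and the inner seed coat in 21.5%, and the peripheral endosperm in 11.7%. The compartment most often highest among the 5 others thus differed between the higher and the lower loci. The same shares over all loci were not counted, and the part of neighbouring tissue in them was not tested.

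Copies of a locus did not always share a pole. Of 5739 loci with at least 2 copies called as deposited, 1718 had all called copies higher in the chalazal endosperm, 1956 had all lower, and 2065 (36.0%) had copies on opposite sides. AGL62 was of the uniform kind: its copies BnaA10g13240D, BnaCnng38710D, BnaC04g15630D and BnaA07g14000D were at 445, 375, 350 and 138 FPKM in the chalazal endosperm and at 0 in the micropylar endosperm, and its micropylar signal came from BnaA02g06310D, at 13 and 24.

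MINI3 was of the divided kind. Its copies BnaAnng25430D and BnaC03g77690D were at 5 and 360 and at 9 and 225 FPKM, while BnaCnng39880D was at 22 in chalazal and 0 in micropylar endosperm. In the peripheral endosperm the first pair was at 1 and 3 FPKM and BnaCnng39880D at 61. GA20ox4 rested on BnaA09g13940D at the chalazal pole, with 333 and 0 FPKM, and on BnaCnng35700D at the micropylar pole, with 0 and 31. TFL1 was chalazal through BnaAnng00810D, at 71 and 0, and BnaC02g02900D, at 18 and 0, and micropylar through BnaC03g01440D, at 0 and 10. These copies were listed at 0 in the peripheral endosperm. The peripheral level came from BnaA10g26300D and BnaCnng10680D, at 43 and 29 FPKM there and at 1 and 3 in the chalazal endosperm.

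Some opposed copies lie next to each other on the chromosome. Among neighbouring copies of a locus, with at most 1 gene name between them, 203 pairs had both members strictly called, of which 101 were both higher, 66 both lower and 36 (17.7%) opposed. The opposed share over all pairs of copies of a locus, neighbouring or not, was 21.1% of 7984. The AT1G10745 copies BnaA02g13570D (A02, 7451078 to 7451454) and BnaA02g13580D (A02, 7454797 to 7455132) are separated by 3342 bases. They encode secreted cysteine-rich proteins of the family named after maize MEG1, which includes the Arabidopsis ESF1 peptides of the central cell and endosperm. The first was at 65 FPKM in chalazal and 837 in micropylar endosperm, and the second at 794 and 0.

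The defensin-like locus AT5G23212 showed this on both subgenomes. On A03, BnaA03g13750D was at 4 FPKM in chalazal and 885 in micropylar endosperm and its neighbour BnaA03g13770D at 2493 and 0. On C03, BnaC03g16660D was at 0 and 1228 and BnaC03g16680D at 22 and 0. The response regulator ARR22, known from the chalaza of Arabidopsis seeds, did likewise on A05, with BnaA05g33120D at 0 and 73 FPKM and BnaA05g33130D at 28 and 0. Its most abundant copy, BnaC03g33640D, was at 70 and 162 FPKM but at 16964 in the chalazal proliferating tissue. Near-identical neighbours can share reads, and how the authors assigned such reads is not given in the sources used here.

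**Figure D5:**
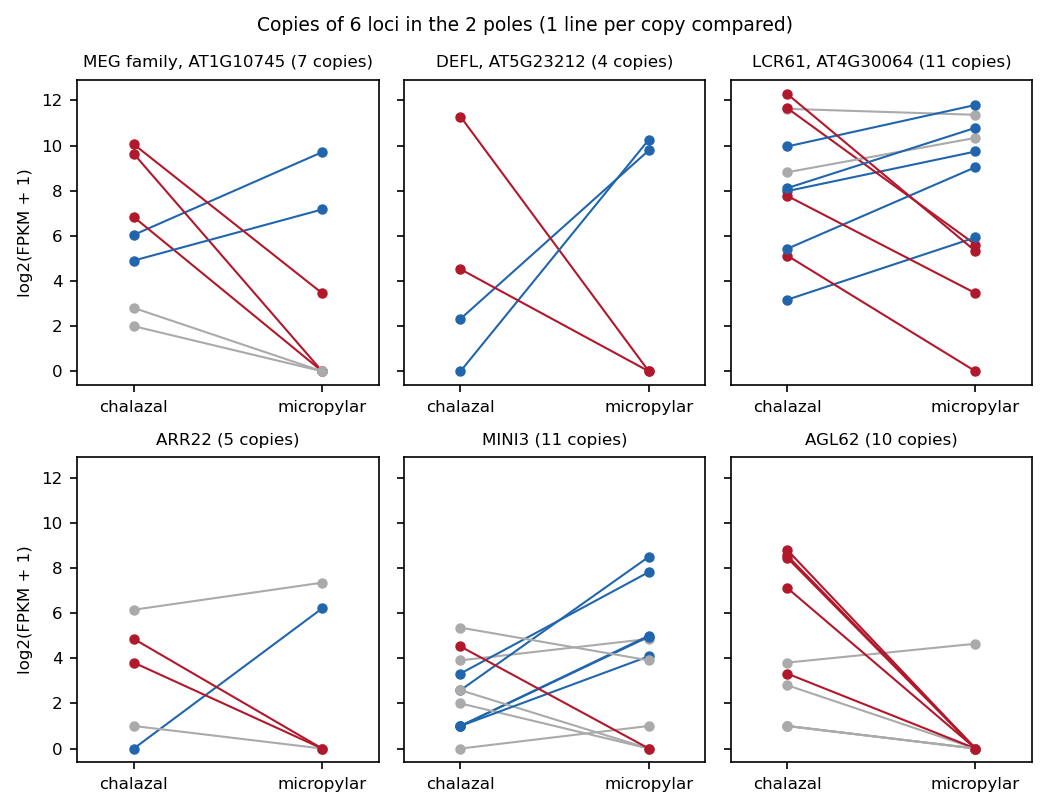
Level as log2(FPKM + 1) of each compared copy of 6 loci in the chalazal (left) and micropylar (right) endosperm, 1 line per copy, red for copies higher and blue for copies lower in the chalazal endosperm under all 4 scalings, grey for the others. AGL62 has 5 red and 0 blue copies, while the MEG, DEFL, LCR61, ARR22 and MINI3 panels hold both colours.

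The A and C subgenomes held similar shares of the genes called. Of the strictly higher genes outside ribosomal RNA and organelle genes 48.1% lay on the A subgenome, and of the lower 49.3%, against 48.2% of all compared. Homeologs, the A and C copies of a locus with exactly 1 copy on each, formed 1541 pairs whose summed level reached 5 FPKM in each pole. In 390 pairs (25.3%) the same homeolog was ahead by 2-fold in both poles, and in 138 (8.96%) the 2-fold lead changed homeolog, 51 with the A copy and 87 with the C copy ahead in the chalazal endosperm. A copy listed at 0 was more frequent in the micropylar column, with 77 chalazal and 504 micropylar cases among the 1541 pairs, and its part in these switches and in the opposed copies was not tested. Among the 513 pairs at 20 FPKM or more, 26 (5.07%) changed.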

How the data were processed

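Laser-microdissected compartments of globular Brassica napus seeds were sequenced after RNA extraction with a plant RNA reagent and library preparation with a low-input kit, per the labels' protocols. The submitters' processing notes name Trimmomatic 0.36, HISAT2 and Cufflinks without stating their roles; the genome build, the counting of reads that fit several copies and strand use are not given in the sources used here. The authors deposited 1 table of FPKM, 1 combined column per group, in which 100% of the values are whole numbers, so the column is treated as a score that the authors rounded, and depth per library is unknown; no interval or count test can be given. FPKM is a per-length scale. 1 further column matching no sample label was not used, and 593 of 101040 genes without compartment values were left out.

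Differences were log2(FPKM + 1) of the chalazal minus the micropylar column (Python 3.11.15, numpy 2.4.6, pandas 2.3.3). A pseudocount of 1 FPKM, a minimum of 1 FPKM in either pole, a difference of 1 and a floor of 5 FPKM were used. Scalings were the deposited values, a common median, quantile scaling of the 2 columns and a common sum without 366 ribosomal RNA and organelle genes. The median of each column was taken over the genes at 1 FPKM or more in that column. The rule was run on simulated columns of abundant genes with planted changes, an assumed noise and no failed estimates. That run checks the code and cannot measure the errors of the rule in these data. With 1 column per group there are no p-values.

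Named loci were up to 4 per direction in each of 20 lists (440 Arabidopsis loci), up to 3 per direction in each of 32 families defined by words of the authors' annotation, the 8 largest and smallest differences and the 3 most abundant genes of each pole. Families defined by words hold strays: the AP2/ERF family includes B3-domain proteins and the histone family includes LEC1. The members and lists were chosen with earlier results of these data known. Neighbouring copies, and list members named because their levels were alike in the 2 poles or because they are relatives of a named member, were chosen after their values were seen. Alternatives were other pseudocounts, filters, floors and scalings, omission of genes under 300 bases, and the most abundant copy of a locus. Start positions are counted from 1.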

Additional observations from a re-analysis of the deposited data

How the results depend on the processing

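Among the 4 counts of genes and loci higher or lower in the chalazal endosperm, the pseudocounts of 0.1 and 5, the absence of a filter, the filter on 2 of the 8 columns, common median and quantile scaling, the omission of genes under 300 bases and the most abundant copy (loci only) moved each count by less than 1.5 times. The common sum without ribosomal RNA and organelle genes lowered the genes higher in the chalazal endosperm to 5815 and the loci higher to 1896, and raised the loci lower to 8142. Without the floor of 5 FPKM there were 19225 genes higher in chalazal endosperm. With a floor of 20 FPKM there were 4175 genes higher in chalazal endosperm, 5128 genes lower in chalazal endosperm, 2049 loci higher in chalazal endosperm and 3105 loci lower in chalazal endosperm. Alternatives chosen after seeing the data gave 5811 genes and 1894 loci higher when the rule had to hold under all 4 scalings, and 1872 loci higher and 2691 lower when the own pole had to exceed the embryo proper and the 3 maternal compartments. Homeolog pairs whose 2-fold lead changed between the poles were 8.96% at 5 FPKM and 5.07% at 20 FPKM. The median difference of the housekeeping list became 0.17 with a common median. That of the Polycomb list became -0.51 with the common sum and -0.32 with the most abundant copy. That of the outer seed coat list became -0.84 and -0.32 under the same alternatives, and that of the programmed cell death list -0.79 with the common sum. The cause was not tested. None of the 108 named loci changed direction under these alternatives, which the choice of loci called under all scalings partly fixes. Leaving out replicates was not run, since each group is 1 combined column. No paired analysis was possible because the columns carry no replicate numbers. Unknown depth and rounding to whole FPKM limit low values most.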

Other observations

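Length and detection differed between the genes of the 2 poles. Of the 5807 nuclear genes strictly higher in the chalazal endosperm, 5.79% were under 300 bases, against 1.57% of the 8453 lower genes and 2.28% of all genes compared. Their median transcript lengths were 1005, 1269 and 1311 bases. Of the higher genes 66.2% were listed at 0 in the micropylar column, and of the lower genes 48.0% were listed at 0 in the chalazal column. Proteases had more lower than higher loci, as did all loci, of which 11.5% were higher and 24.3% lower. Of 27 subtilases 4 (14.8%) were strictly higher and 12 (44.4%) lower, and of 48 aspartyl proteases 4 (8.33%) and 18 (37.5%). Above the embryo and maternal compartments were 5 of the 12 and 6 of the 18. The subtilase SBT4.13 (AT5G59120) was at 961 FPKM in chalazal and 14 in micropylar endosperm and the aspartyl protease AT5G33340 at 3414 and 33, while another aspartyl protease, AT5G07030, was at 0 and 232.

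Several classes of basic cell machinery had fewer strict calls than the 11.5% higher and 24.3% lower of all loci. Of 179 pentatricopeptide repeat loci, which act on organelle RNA, 6 (3.35%) were strictly higher and 15 (8.38%) lower. Their median difference was nevertheless 1, against -0.26 for all loci. Together they summed to only 1465 FPKM in chalazal and 1297 in micropylar endosperm, and the part of the 5 FPKM floor was not tested. Of 244 ribosomal protein loci 23 (9.43%) were strictly higher and 17 (6.97%) lower. Histones had 10 loci higher and 4 lower of 26 as deposited, with a median of 0.63, and 3 and 3 under all scalings, with the H2A gene AT5G02560 at 136 FPKM in chalazal and 4 in micropylar endosperm and the centromeric histone gene AT1G01370 at 24 and 0. The nuclear gene with the highest micropylar value, BnaA08g29110D, matching the lipid-transfer superfamily locus AT3G57310, was at 11163 FPKM in chalazal and 4346 in micropylar endosperm and reached 17311 in the peripheral endosperm.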
